A study of Danio rerio with 21 samples.

Results

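The data compared here are the whole-body transcriptomes of zebrafish (*Danio rerio*, AB strain, genotype given as wild type) at 60 days post-fertilization (dpf). T60D fish were kept at 35 °C from 25 to 35 dpf, which is 10 days, and then at 28 °C for 25 days, whereas C60D fish stayed at 28 °C throughout. Each group had 3 libraries, so the comparison used 6 of the 21 libraries of the series, chosen by label alone. All fish were offspring of a single family and shared the strain, the light cycle and the tank density. The libraries were made from whole fish with about 60 mg of tissue in an extraction, and the methods of the study give a range for the number of fish collected at each age, but neither the number nor the sexes of the fish behind each library. The question was which genes still differed between heated and unheated fish after 25 days of recovery, and which organs were represented in the RNA of each group.

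Zebrafish have no fixed sex chromosome in domesticated strains, and warmth during the weeks when the gonad differentiates shifts the sex ratio towards males. Juveniles first form an ovary-like gonad, which either matures as an ovary or turns into a testis. Heat itself is known to induce chaperones, the proteins that keep other proteins folded, and in a whole animal each organ adds its own transcripts to the mixture, such as plasma proteins from the liver, crystallins from the lens and egg-coat proteins from oocytes.

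The count table held 26225 genes, and the 6 libraries held between 12861256 and 15901229 counts. Levels are given as CPM, counts scaled to a common total and adjusted with trimmed-mean (TMM) factors, and a count of 3 in a library, used as the floor, was worth 0.188 to 0.291 CPM. The C60D libraries did not behave as 3 independent samples. C60D-3 could be written as a mixture of 51.1% of C60D-1 and 48.9% of C60D-2 with a chi-square of 1.61 per degree of freedom over 16198 genes, close to counting noise, and its value lay between the other C60D libraries in 85.2% of those genes. For the T60D libraries the same chi-square was 515 or more. The methods of the study describe independent biological replicates for every age and temperature, and how C60D-3 arose was not tested. Values of C60D-3 are therefore shown throughout, but the spread within C60D was close to that of a pair of libraries, and counts are also given without C60D-3. The labels do not say whether replicates came from separate tanks, so p-values measure only the spread between these libraries, which may be technical in part. The T60D libraries in turn differed strongly among themselves. Across the 18653 genes tested, the log2 CPM of T60D-1 correlated at 0.843 with C60D-2 and at 0.660 with T60D-2, while T60D-2 and T60D-3 correlated at 0.873 (Pearson, across genes, which are not independent replicates).

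No gene passed the adjusted threshold in either direction. With Benjamini-Hochberg adjustment, the edgeR quasi-likelihood fit called 0 genes higher (0.0% of 18653) and 0 lower (0.0%) in T60D, and the lowest adjusted p was 0.0544. Before adjustment, 3002 genes were higher (16.1%) and 1777 lower (9.53%) at the 0.05 threshold, and DESeq2 called 2527 higher (11.9% of 21187) and 649 lower (3.06%). Leaving out T60D-1 gave 3920 higher and 2373 lower genes in the edgeR fit, leaving out T60D-2 gave 410 and 16, and leaving out any other library gave 0 and 0. Without C60D-3 the lowest adjusted p in edgeR was 0.433, and 1642 genes were higher and 581 lower before adjustment. Because nothing passed, the genes below are described by their values in each library, and "higher" and "lower" refer to those values. Complete separation of 3 against 3 libraries reaches an exact two-sided permutation p of 0.10 at the least. That value takes the 3 C60D libraries as independent. The mixture seen in C60D-3 puts this in doubt, so the value can overstate what separation shows here.

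In 2370 tested genes (12.7%) all 3 T60D values lay above all 3 C60D values, and in 3093 (16.6%) all lay below. Without C60D-3 the counts were 2695 and 3383. The log2 fold change lay above 0 in 49.2% of the tested genes and below 0 in 50.8%, with a median of −0.02. The separated genes on the higher side were more often far apart: 810 of them differed by 4-fold or more and 171 by 16-fold or more, against 526 and 13 on the lower side, where the median difference was 1.35 on the log2 scale against 1.53 on the higher side. The split depended on the scaling, since with library size alone 2988 genes lay above and 1571 below, and the median of all genes was then 0.17.

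Transcripts of several organs were near absent in C60D. A gene was counted as near absent in a group when each of its 3 libraries held at most 3 counts and the other group had a median of at least 10 counts. By this rule 733 genes (2.8% of 26225) were near absent in C60D, and 44 (0.168%) were near absent in T60D. Without C60D-3 the counts were 789 and 62. Of the 733, 154 had no count at all in any C60D library. Among the 133 that stood in a marker list, 73 were eye genes, 17 liver, 16 ovary, 8 intestine, 4 endocrine pancreas, 4 neuronal and 3 heart genes. In whole-body RNA, fewer cells of a type and less RNA per cell cannot be told apart. The genes were not rare in zebrafish of this series: the median near-absent gene exceeded 3 counts in 12 of the other 15 libraries, and 531 of the 733 did so in at least 10 of them. Only 57 of the 733 passed the filter on low counts and entered the edgeR test.

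The 733 genes fell into patterns set by single T60D libraries. In 302 of them only T60D-1 and T60D-3 exceeded 3 counts, in 202 only T60D-2 and T60D-3, in 12 only T60D-1 and T60D-2, and 217 exceeded 3 counts in all 3 T60D libraries. Organs followed these patterns closely. All 13 near-absent oocyte genes belonged to T60D-2 and T60D-3. By contrast, 27 of 31 lens genes, 29 of 35 photoreceptor genes and 7 of 8 intestine genes belonged to T60D-1 and T60D-3 alone.

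**Figure D1:**
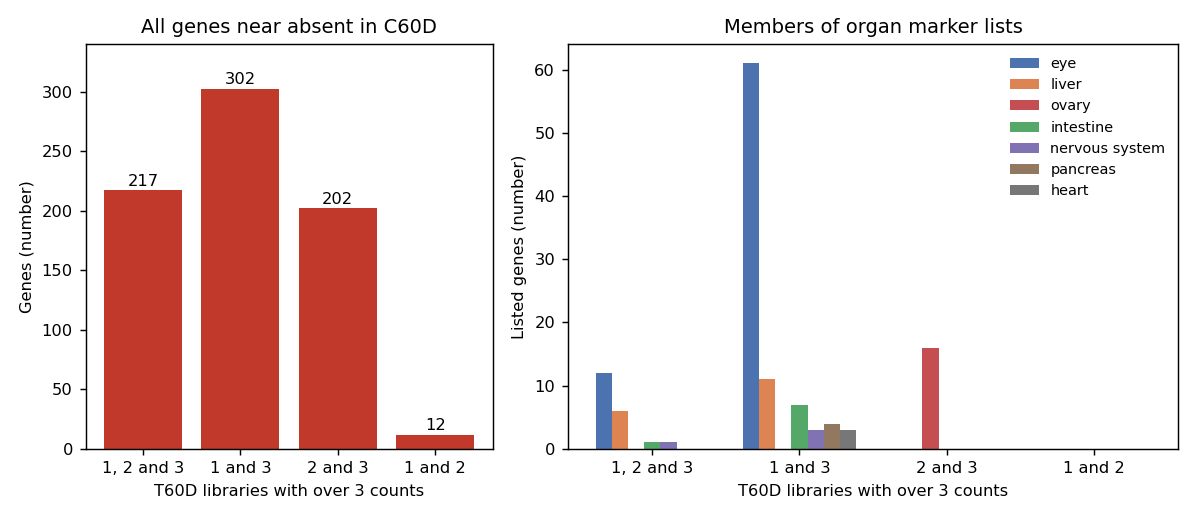
Genes near absent in all 3 C60D libraries, by which T60D libraries held over 3 counts. Left, all 733 genes (302 in T60D-1 and T60D-3 only); right, the members of organ marker lists, in which eye, liver and intestine genes stand mostly under libraries 1 and 3 and ovary genes under libraries 2 and 3.

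Liver transcripts were abundant in T60D-1 and T60D-3 and at or near the floor in T60D-2 and in all C60D libraries. Apolipoprotein A-I, the main protein of high-density lipoprotein, was encoded by apoa1a at 8539, 4.64 and 5219.9 CPM in T60D-1, -2 and -3, against 1.73, 7.38 and 1.61 CPM in C60D-1, -2 and -3. The liver fatty acid carrier fabp10a had 3943, 2.13 and 1697 CPM in T60D, against 1.4, 1.17 and 0.322 CPM in C60D. Transferrin (tfa), the iron carrier of plasma, had 5906, 4.26 and 4683 CPM in T60D and 0.866, 4.47 and 1.05 CPM in C60D. T60D-1 and T60D-3 thus lay far above every C60D library, while T60D-2 was close to the C60D values. The fibrinogen gamma chain gene fgg, a clotting factor, showed the same arrangement with 590.3, 0.125 and 283 CPM in T60D, against 0.0666, 0.0971 and 0 CPM in C60D. The lipoprotein gene apom was at 240.1, 0.313 and 136 CPM in T60D and had no count in any C60D library, so that its T60D mean was at least 513-fold higher, taking a floor of 3 counts per library. Separation of the groups, where it occurred, rested on small values: fabp10a and the apolipoprotein B gene apobb.1 (4341, 1.5 and 1623 CPM in T60D, against 1.33, 1.17 and 0.403 CPM in C60D) counted as separated because T60D-2 lay just above C60D-1. Their log2 fold changes were 10.92 ± 2.51 and 10.99 ± 2.58 (SE), with an adjusted p of 0.145 in edgeR (Benjamini-Hochberg).

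The liver list of 59 secreted proteins made this visible as a whole. Its mean level, as log2(CPM + 0.5), was 7.64, 0.35 and 6.88 in T60D, against 0.09, 0.69 and 0.11 in C60D. Its summed level was 57391, 520.5 and 29856 CPM in T60D, against 1413, 587 and 1130.0 CPM in C60D. In T60D-1 none of the 59 genes was at 3 counts or fewer, in T60D-2 19 were and in T60D-3 1 was, against 36, 19 and 35 in the C60D libraries. Only 28 of the 59 passed the filter on low counts, many of them through T60D alone, so no count over those 28 is given. Liver metabolism genes were less extreme: of 39 tested members 27 lay above 0 and 12 below (median 1.56), and 4 were separated upward (against 12.7% of all genes) and 2 downward (against 16.6%). Without T60D-2, and also without C60D-2, 44 members were tested. Some of these can have passed the filter through T60D alone, so their upward counts are not given. Downward, 2 of the 44 were separated without T60D-2 (4.5%, against 16.9% of all genes then). Without C60D-2 8 were (18.2%, against 26.2%). Urate oxidase (uox), an enzyme of purine breakdown, had 320.0, 0.188 and 146 CPM in T60D and 0, 0.291 and 0 CPM in C60D, whereas the methyl-transfer enzyme gene bhmt had 1111, 368 and 277 CPM in T60D and 236, 541 and 346 CPM in C60D.

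**Figure D2:**
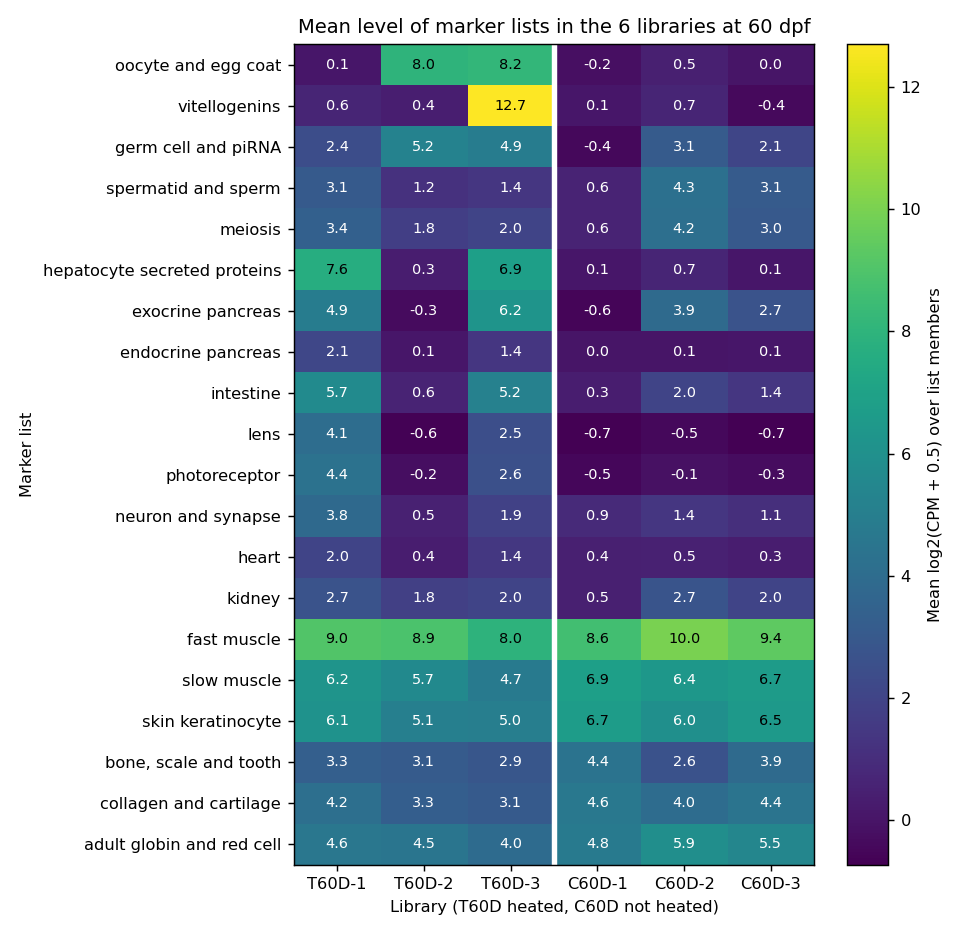
Mean log2(CPM + 0.5) of marker lists (rows) in the 3 T60D libraries and the 3 C60D libraries (columns), with the value printed in each cell. The list of secreted liver proteins stands at 7.64 and 6.88 in T60D-1 and T60D-3 and at 0.69 or less in T60D-2 and C60D, and the oocyte list stands above 8 in T60D-2 and T60D-3 alone.

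Eye transcripts showed the same arrangement with an even lower floor. The crystallins, which give the lens its refraction, were represented by crybb2 at 444, 0.313 and 110.0 CPM in T60D, against 0.0666, 0 and 0 CPM in C60D, and by crygm2b at 294, 0 and 64.5 CPM in T60D with no count in C60D, at least 489.8-fold higher as a mean. Reads of such close paralogs can be divided among them by the counting, so single gamma-crystallin values are uncertain and the sum is the firmer value. The 71 lens genes summed to 5608, 18.6 and 1337 CPM in T60D, against 17.3, 30.3 and 18.0 CPM in C60D. Rod transducin (gnat1), which couples rhodopsin to the light response, had 285, 0.188 and 86.3 CPM in T60D, against 0, 0.194 and 0.0806 CPM in C60D. Medium-wave cone opsin (opn1mw2) had 149, 0.0627 and 28.8 CPM in T60D and 0, 0.0971 and 0 CPM in C60D. These eye genes were thus near the floor outside T60D-1 and T60D-3, and T60D-1 was the highest in each. Of the 76 photoreceptor genes, 35 were near absent in C60D, and 52 were at 3 counts or fewer in T60D-2 as well. Only 16 of the 76 photoreceptor genes and 11 of the 71 lens genes passed the filter, in part through T60D alone, so they are not counted further. One that passed was rbp3, a carrier of visual pigment retinoids, which had 175, 7.08 and 38 CPM in T60D, against 0, 0.583 and 0.0806 CPM in C60D.

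Other internal organs were distributed in further ways. In the intestine list, the fatty acid carrier fabp2 had 1654, 1.07 and 841 CPM in T60D, against 1.27, 9.03 and 4.51 CPM in C60D, and the chylomicron protein gene apoa4b.2 had 1859, 1.13 and 843 CPM in T60D, against 0.133, 1.75 and 1.05 CPM in C60D. The ileal bile acid carrier fabp6 did not follow: it had 234, 0.125 and 243 CPM in T60D, against 0.200, 882 and 296 CPM in C60D. Trypsin (prss1), made by the exocrine pancreas, had 389, 1.13 and 831 CPM in T60D, against 0.533, 229 and 76.5 CPM in C60D. Transcripts of the digestive tract were therefore present in part in C60D-2 and C60D-3, with prss1 and fabp6 but at most 9.03 CPM of fabp2. All 30 tested exocrine pancreas genes had a positive log2 fold change (median 2.38), yet only 2 were separated (6.7%, against 12.7% of all genes). Without T60D-2, 31 of 31 were separated upward (22.6% of all genes then). The list stood at 4.89, −0.32 and 6.20 in T60D and at −0.57, 3.93 and 2.73 in C60D. Of the 20 endocrine pancreas genes 4 were near absent in C60D, among them somatostatin 2 (sst2) at 2.11, 0.188 and 1.00 CPM in T60D and 0 CPM in all C60D libraries. The atrial myosin light chain gene myl7 of the heart had 66.4, 0.125 and 18.3 CPM in T60D and 0, 0.194 and 0 CPM in C60D. The kidney and gut cadherin cdh17 overlapped between the groups, with 191, 23.3 and 96.2 CPM in T60D, against 0.933, 53.5 and 22.0 CPM in C60D.

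Neuronal genes were highest in T60D-1 and lower in the other libraries. The glia list was also highest in T60D-1 and lowest in T60D-2, but over a narrower range. The synaptic vesicle gene snap25a had 272, 18.3 and 55.2 CPM in T60D, against 24.6, 51.3 and 34.4 CPM in C60D, so T60D-2 had the lowest value of all. The neuron list stood at 3.84, 0.48 and 1.85 in T60D and at 0.90, 1.4 and 1.08 in C60D. Myelin basic protein (mbpa) overlapped, with 875, 202 and 145 CPM in T60D and 383, 699.8 and 528 CPM in C60D. The glia list stood at 4.93, 3.21 and 3.62 in T60D and at 3.83, 3.78 and 3.83 in C60D, with 11 tested members above 0 and 9 below. The 4 neuronal genes counted as near absent in C60D included the synaptic gene cplx4a, with 24.3, 0.125 and 2.34 CPM in T60D, against 0.0666, 0.0971 and 0.0806 CPM in C60D.

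Gonadal transcripts divided the 6 libraries in a way that crossed the groups. Egg-coat and oocyte genes were present in T60D-2 and T60D-3 and near the floor in T60D-1 and in C60D. The egg-coat gene zp2.1 had 0, 1663 and 2031 CPM in T60D, against 0, 0.194 and 0 CPM in C60D. The oocyte growth factor gdf9 had 0, 34.7 and 18.4 CPM in T60D and no count in C60D. Bucky ball (buc), which organizes the Balbiani body of the oocyte, had 0.944, 812 and 666 CPM in T60D, against 0.266, 2.91 and 1.29 CPM in C60D. These genes made the 45 members of the oocyte list sum to 73.2, 22639 and 23679 CPM in T60D, against 45.8, 117 and 72.6 CPM in C60D. Only 17 of the 45 passed the filter on low counts, and no count over them is given. Steroid-producing genes of the follicle went with the oocyte genes: hsd3b2, an enzyme of steroid synthesis, had 0.145, 44.8 and 75.2 CPM in T60D, against 0, 0.291 and 0.0806 CPM in C60D, and aromatase (cyp19a1a), which makes estrogen from androgen, had 0.145, 0.815 and 2.07 CPM in T60D, against 0.133, 0 and 0 CPM in C60D. The ovarian regulator foxl2a stayed low everywhere, with 0.0726, 0.627 and 0.401 CPM in T60D and no count in C60D.

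Yolk precursor genes separated the oocyte-bearing libraries from each other. Vitellogenin 1 (vtg1), which the liver makes under estrogen for export to growing oocytes, had 4.43, 4.26 and 94633 CPM in T60D, against 2.6, 4.76 and 0.242 CPM in C60D. The 8 vitellogenin genes together took 15.6% of all counts of T60D-3 and at most 0.00145% of any other library at 60 dpf. The estrogen receptor gene esr1 had 1.38, 0.501 and 39.4 CPM in T60D, against 0.133, 0.583 and 0.322 CPM in C60D. T60D-3 alone therefore carried yolk transcripts, liver transcripts and oocyte transcripts together. T60D-2 had oocyte transcripts with liver genes near the floor. The vitellogenins are close paralogs, so their sum is firmer than the value of a single member.

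Testis genes were high in T60D-1, C60D-2 and C60D-3. The Leydig cell hormone insl3 had 61.9, 0.564 and 0.267 CPM in T60D, against 0.0666, 109.5 and 38.9 CPM in C60D. The male sex regulator dmrt1 had 13.1, 2.32 and 3.27 CPM in T60D, against 0.133, 27.1 and 10.8 CPM in C60D. The androgen-synthesis gene cyp11c1 had 3.12, 0.188 and 0.0668 CPM in T60D, against 0.0666, 8.54 and 3.22 CPM in C60D. The spermatid list followed, at 3.07, 1.18 and 1.39 in T60D and 0.59, 4.25 and 3.14 in C60D, and 31 of its 33 tested members lay below 0 (median −1.44) with 1 separated (3.0%, against 16.6% of all genes). Without C60D-1 16 of the 33 were separated downward (48.5%, against 19.3% of all genes then), and without T60D-1 9 were (27.3%, against 33.1%). Without C60D-2 the median was −0.35, with 2 of 32 separated downward (6.25%, against 26.2%). C60D-1 was near the floor for the oocyte genes above and for insl3, dmrt1 and cyp11c1, and the germ cell helicase gene ddx4 had 45.5, 83.4 and 57.1 CPM in T60D, against 0, 63.5 and 21.6 CPM in C60D. In each of these testis and germ cell genes C60D-3 lay between C60D-1 and C60D-2. Among the sex genes examined by name, amh (3.41, 0.627 and 0.134 CPM in T60D, against 1.87, 1.94 and 1.21 CPM in C60D) and gsdf (58.7, 37.7 and 27.4 CPM in T60D, against 37.8, 105 and 63.9 CPM in C60D), both expressed by gonadal support cells, overlapped between the groups. An exception was cyp17a1, a steroid hydroxylase of both gonads, which was separated with 18.7, 67.9 and 39.5 CPM in T60D, against 0.533, 3.69 and 1.85 CPM in C60D (log2 fold change 4.39 ± 0.84, adjusted p = 0.145 in edgeR).

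A smaller set of genes was high in all 3 T60D libraries, whatever organs these represented. Glycogen phosphorylase of the liver type (pygl), which releases glucose from glycogen, had 68.6, 77.0 and 84.7 CPM in T60D, against 0.733, 0.291 and 0.242 CPM in C60D. It had the smallest p of all genes (log2 fold change 7.44 ± 0.55, adjusted p = 0.0544 in edgeR). Liver glycogen synthase (gys2), which makes glycogen, had 40.2, 13 and 32.7 CPM in T60D, against 0.200, 0.194 and 0.161 CPM in C60D. Both glycogen genes were thus well expressed in T60D-2, in which the secreted liver proteins were near the floor. Catalase (cat), which breaks down hydrogen peroxide, had 399, 331 and 520.3 CPM in T60D, against 39.8, 47.3 and 46.6 CPM in C60D (log2 fold change 3.22 ± 0.35). The very-long-chain fatty acid elongase elovl4b had 35.7, 16.7 and 27.1 CPM in T60D, against 0.333, 0.291 and 0.242 CPM in C60D (6.47 ± 0.54). Brain-type creatine kinase (ckbb), an enzyme of energy buffering, had 512, 548 and 889 CPM in T60D, against 31.8, 61.4 and 42.6 CPM in C60D (3.84 ± 0.45). In each of these genes the groups lay far apart relative to the spread within them, and their adjusted p-values in edgeR lay between 0.0544 and 0.0962. Those p-values count C60D-3 as an independent library, and without it the lowest adjusted p of any gene in edgeR was 0.433.

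Further genes higher in T60D are known from several tissues, but their tissue of origin was not measured in these whole-body libraries. The neuronal ubiquitin ligase trim9 had 17.4, 23.8 and 19.5 CPM in T60D, against 1.80, 1.65 and 1.45 CPM in C60D (log2 fold change 3.62 ± 0.41). The lipid-binding trafficking gene unc119a2 had 29.7, 40.6 and 52.8 CPM in T60D, against 3.33, 2.91 and 3.54 CPM in C60D (3.65 ± 0.38). In both genes the groups lay far apart. The tetraspanin gene tspan13a had 55.7, 52.0 and 96.4 CPM in T60D and 3.93, 6.5 and 4.67 CPM in C60D (3.76 ± 0.42). The retinal homeobox gene vsx1 had 7.77, 8.34 and 11 CPM in T60D, against 0.0666, 0.194 and 0.0806 CPM in C60D, and so did not share the loss of other eye genes in T60D-2. C-reactive protein 2 (crp2), of the acute-phase pentraxin family, had 122, 916 and 839 CPM in T60D, against 0.400, 0.485 and 0.242 CPM in C60D. The sodium pump subunit gene atp1a1a.1, an abundant ionocyte transcript whose p was not among the smallest, had 195, 261 and 275 CPM in T60D, against 77.8, 64.6 and 70.0 CPM in C60D (1.78 ± 0.31). In 14 or 15 of the other 15 libraries of the series, pygl, elovl4b, cat, ckbb, trim9, tspan13a and crp2 lay above the highest C60D value.

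**Figure D3:**
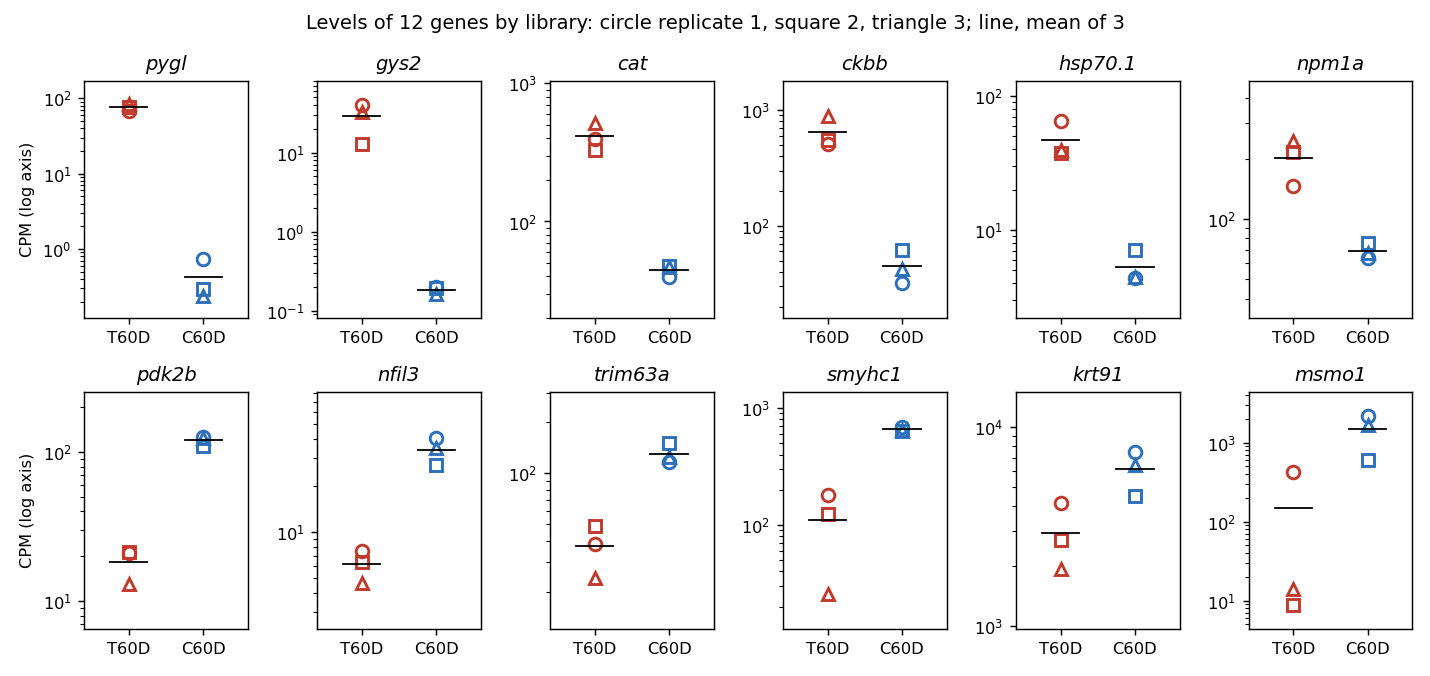
CPM (log axis) of 12 genes in each library, T60D left and C60D right, with circle, square and triangle for replicates 1, 2 and 3 and a line at the mean of 3. From pygl to npm1a the T60D values lie above the C60D values, for example 68.6 to 84.7 against 0.242 to 0.733 CPM for pygl, and from pdk2b to msmo1 they lie below.

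Chaperone genes were higher in T60D as a group, with exceptions among the most abundant. Of 48 tested members 35 had a positive log2 fold change and 13 a negative one (median 0.66, against −0.02 for all genes), and 19 were separated upward (39.6%, against 12.7%) and 3 downward (6.2%, against 16.6%). The heat-inducible hsp70.1 had 64.7, 37.9 and 39.4 CPM in T60D, against 4.40, 7.09 and 4.43 CPM in C60D (log2 fold change 3.16 ± 0.41, adjusted p = 0.114 in edgeR). The endoplasmic reticulum chaperone hspa5 had 288, 709.5 and 546 CPM in T60D, against 116, 105 and 114 CPM in C60D (2.21 ± 0.42). Its partner hsp90b1 had 309, 707 and 586 CPM in T60D, against 176, 94.3 and 140.1 CPM in C60D (1.96 ± 0.45). The mitochondrial chaperonin hspd1 had 107, 158 and 164 CPM in T60D, against 67.4, 60.7 and 58.4 CPM in C60D (1.2 ± 0.31). By contrast, the constitutive hspa8 had 2257, 2081 and 2356 CPM in T60D, against 2356, 1981 and 2157 CPM in C60D, and hsp90ab1 had 2011, 1550.4 and 2031 CPM in T60D, against 2269, 1858 and 2110.0 CPM in C60D, so the members with the most counts overlapped. Across the other 15 libraries hsp70.1 ranged between 7.17 and 335 CPM with a median of 28.4 CPM, and all 15 lay above the highest C60D value. With library size alone 23 chaperones were separated upward (47.9%, against 16.0% of all genes then) and 2 downward (4.2%, against 8.42%).

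Ribosome biogenesis was the list with the most separated members. Of its 94 genes, all tested, 92 lay above 0 (median 1.56). Upward, 66 of the 94 were separated (against 12.7% of all genes), and downward 1 was (1.1%, against 16.6%). Without C60D-3 the counts were again 66 and 1, while 2695 and 3383 of all genes were then separated upward and downward. The pseudouridine synthase dkc1, which modifies ribosomal RNA, had 64.3, 134 and 198 CPM in T60D, against 21.3, 28.6 and 21.8 CPM in C60D (log2 fold change 2.47 ± 0.47). The assembly factor rrs1 had 29.0, 60.6 and 84.5 CPM in T60D, against 6.53, 8.35 and 8.94 CPM in C60D (2.87 ± 0.47). Nucleophosmin (npm1a), a nucleolar chaperone, had 146, 215 and 244 CPM in T60D, against 64.0, 75.4 and 67.8 CPM in C60D (1.55 ± 0.33). In each of these genes T60D-1 had the lowest T60D value and still exceeded all C60D libraries. The exception was the GTPase gene gtpbp4, with 155, 289 and 254 CPM in T60D, against 290.1, 375 and 323 CPM in C60D (−0.50 ± 0.35). Oocyte transcripts moved with this list: the libraries that carried them, T60D-2 and T60D-3, had ribosome biogenesis levels of 5.72 and 6.09, against 4.20 in T60D-1 and 3.97, 3.95 and 3.88 in C60D. Elsewhere in the series T35D-2, T35D-3 and T45D-2, with oocyte list levels of 8.82, 8.83 and 8.44, had ribosome biogenesis levels of 5.88, 6.09 and 5.70, and the remaining 12 libraries lay at 4.68 or below. The level of T60D-1 was below the median of the other 15 libraries (4.25), whose lowest value was 3.73. Of those 15, 10 lay above the highest C60D library, so T60D-1 was not raised against the series. The part of the oocytes in the difference was not tested beyond these values.

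Genes of DNA replication and cell division were high in the same libraries, and few of them were separated. The DNA methyltransferase dnmt1, which copies methylation to new strands, had 19.7, 635 and 394 CPM in T60D, against 31.3, 22.2 and 28.4 CPM in C60D. Cyclin B1 (ccnb1), which drives entry into mitosis, had 10.7, 568 and 511 CPM in T60D, against 2.2, 18.4 and 7.09 CPM in C60D. The replicative helicase subunit mcm4 was separated, with 33.1, 181 and 210.0 CPM in T60D, against 26.4, 29.5 and 23.0 CPM in C60D (log2 fold change 2.42 ± 0.66). In all 3 genes T60D-1 was close to C60D and the oocyte-bearing libraries were far above. Of the tested members, 44 of 46 DNA replication genes, 67 of 71 mitosis genes and 44 of 45 Fanconi anemia genes had a positive log2 fold change (medians 2.23, 2.29 and 1.55), but 6, 2 and 2 were separated upward (13%, 2.8% and 4.4%, against 12.7% of all genes). With library size alone 17, 15 and 10 were separated (16.0% of all genes then), and without C60D-2 21, 47 and 16 were (19.3% of all genes). Without T60D-1, 40, 48 and 34 passed the edgeR threshold upward, a setting in which 3920 of 19592 genes did.

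**Figure D4:**
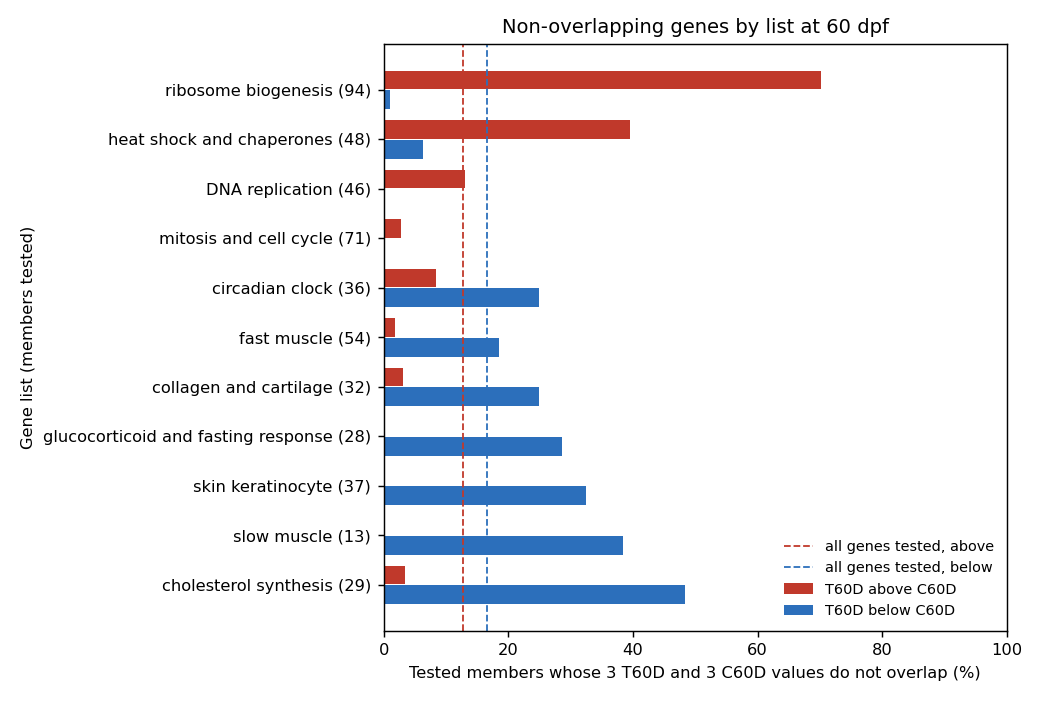
Share of the tested members of each list (number tested in brackets) whose 3 T60D values all lie above (red) or all below (blue) the 3 C60D values. Dashed lines mark the shares of all genes tested, 12.7% above and 16.6% below; ribosome biogenesis has 66 of 94 above and cholesterol synthesis 48.3% below.

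On the lower side the longest run of genes belonged to cholesterol synthesis. Of 29 tested members, 25 lay below 0 (median −2.36) and 14 were separated downward (48.3%, against 16.6% of all genes) with 1 upward (3.4%). Downward counts were 6 with library size alone (8.42% of all genes then), 23 without T60D-1 (33.1%) and 24 without C60D-2 (26.2%). The sterol oxidase msmo1 had 429.8, 8.78 and 13.9 CPM in T60D, against 2209, 612 and 1677 CPM in C60D (log2 fold change −3.31 ± 1.51). The sterol isomerase ebp had 84.2, 6.71 and 9.69 CPM in T60D, against 965, 195 and 697 CPM in C60D (−4.21 ± 1.18). The pathway's transcription factor srebf2 had 32.5, 22.4 and 10.8 CPM in T60D, against 227, 72.6 and 165 CPM in C60D (−2.82 ± 0.59). The order of libraries was the same in all 3 genes within C60D, with C60D-1 highest and C60D-2 lowest, and T60D-1 was the highest T60D library. Citrate lyase (aclya), which supplies the acetyl-CoA, had 77.6, 104 and 53.9 CPM in T60D, against 691, 177 and 475 CPM in C60D (−2.51 ± 0.57). All 15 other libraries of the series had list levels between 2.72 and 3.90, below the lowest C60D library (5.10). T60D-2 and T60D-3 (3.08 and 3.55) fell within those values, and T60D-1 (4.95) exceeded them. The list of secreted liver proteins was near the floor in C60D, where these genes were highest.

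Muscle transcripts leaned lower in T60D, and whether slow or fast fibres had the larger separated share depended on the scaling. The slow myosin heavy chain smyhc1 had 182, 124 and 25.7 CPM in T60D, against 689, 638 and 650.5 CPM in C60D (log2 fold change −2.58 ± 0.68), and smyhc2 had 402, 645 and 166 CPM in T60D, against 1328, 733 and 1076 CPM in C60D (−1.37 ± 0.55). Of 13 tested slow-muscle genes 12 lay below 0 (median −1.02) and 5 were separated downward (38.5%, against 16.6% of all genes). With library size alone 1 was (7.7%, against 8.42% of all genes then). The count was 11 without T60D-1 (84.6%, against 33.1%) and 9 without C60D-2 (69.2%, against 26.2%). The muscle alpha actin gene actc1b overlapped, with 27231, 29576 and 13651 CPM in T60D and 20935, 58980.1 and 34757 CPM in C60D. Of 54 tested fast-muscle genes 48 lay below 0 (median −0.80) and 10 were separated downward (18.5%, against 16.6% of all genes). With library size alone 13 of 54 were (24.1%, against 8.42% of all genes then). Without T60D-1 19 of 55 were (34.5%, against 33.1%), and without T60D-2 17 of 56 were (30.4%, against 16.9%). Without C60D-1 26 of 56 were (46.4%, against 19.3%). Fast-muscle genes took 21.4%, 23.0% and 8.94% of the counts in T60D, against 18.0%, 34.5% and 26.0% in C60D, so the shares overlapped.

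Several genes of fuel use and muscle breakdown were lower in T60D. The pyruvate dehydrogenase kinase pdk2b, which limits glucose oxidation, had 20.9, 21.3 and 13 CPM in T60D, against 127, 110.0 and 124 CPM in C60D (log2 fold change −2.71 ± 0.33, adjusted p = 0.104 in edgeR). The muscle ubiquitin ligase trim63a, known for its role in atrophy, had 38.3, 49.2 and 24.1 CPM in T60D, against 116, 152 and 125 CPM in C60D (−1.82 ± 0.37). The lipase inhibitor angptl4, induced by fasting, had 25.9, 39.6 and 37.4 CPM in T60D, against 114, 98.8 and 117 CPM in C60D (−1.68 ± 0.31). All 15 other libraries of the series lay below the lowest C60D value for trim63a and angptl4, and 14 of 15 did for pdk2b. Carnitine palmitoyltransferase (cpt1ab), which admits fatty acids to mitochondria, had 40.7, 25.6 and 12.4 CPM in T60D, against 97.5, 91.4 and 97.3 CPM in C60D (−1.86 ± 0.46). The glucocorticoid receptor nr3c1 had 30.7, 27.0 and 17.4 CPM in T60D, against 79.7, 47.4 and 63.3 CPM in C60D (−1.34 ± 0.36). The list of glucocorticoid and fasting genes as a whole was mixed, with 17 of 28 tested members below 0 (median −0.37, and 0.05 without T60D-3). Its level was 4.14, 3.59 and 3.36 in T60D, against 4.39, 4.18 and 4.22 in C60D. The other 15 libraries lay between 4.21 and 4.98, all above the highest T60D library, so for the whole list T60D stood apart from the series. Of the 28, 8 were separated downward (28.6%, against 16.6% of all genes) and none upward. Without T60D-1, 20 of 29 were separated downward (69.0%, against 33.1% of all genes then).

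Other genes lower in T60D included regulators and enzymes known from several tissues. The transcriptional repressor nfil3, which acts in circadian timing and immune cells, had 7.55, 6.39 and 4.68 CPM in T60D, against 40.7, 27.1 and 34.9 CPM in C60D (log2 fold change −2.46 ± 0.37), and all 15 other libraries fell between the groups, at 9.34 to 23.0 CPM. The ubiquitin ligase adaptor asb2a.1 had 3.41, 6.77 and 2.00 CPM in T60D, against 41.8, 46.6 and 43.3 CPM in C60D (−3.43 ± 0.52). AMP deaminase (ampd3b), an enzyme of purine nucleotide turnover, had 19.5, 15.1 and 7.95 CPM in T60D, against 166, 72.2 and 133 CPM in C60D (−3.12 ± 0.50). In all 3 genes the lowest C60D value was well above the highest T60D value. The acute-phase gene saa had 1.02, 0.313 and 0.468 CPM in T60D, against 28.0, 1.65 and 19.7 CPM in C60D (−4.77 ± 1.11), a difference that C60D-1 and C60D-3 carried. The gene LOC100535405, for which no role is annotated, had 2.18, 0.690 and 0.735 CPM in T60D, against 166, 43.9 and 115 CPM in C60D (−6.49 ± 0.79). Of 36 tested clock genes 26 lay below 0 (median −0.51), with 9 separated downward (25.0%, against 16.6% of all genes) and 3 upward (8.3%, against 12.7%). With library size alone 4 were separated downward (11.1%, against 8.42% of all genes then) and 3 upward (8.3%, against 16.0%). The downward count was 20 without T60D-1 (55.6%, against 33.1%) and 15 without C60D-2 (40.5%, against 26.2%). The clock repressor bhlhe40 had 134, 85.9 and 42.5 CPM in T60D, against 187, 185 and 195 CPM in C60D (−1.11 ± 0.45). The sources used here do not give the hour of sampling.

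Most skin and skeletal genes had negative log2 fold changes, and the share separated was above that of all genes for skin and collagen but not for bone. Keratin 91 (krt91), an epidermal keratin, had 4143, 2719 and 1941 CPM in T60D, against 7530.0, 4521 and 6466 CPM in C60D (log2 fold change −1.07 ± 0.45). Type I collagen (col1a1a), the main fibre of bone and skin, overlapped, with 4141, 1419 and 1034 CPM in T60D and 7504, 3828 and 6098 CPM in C60D. Of the tested members, 33 of 37 skin genes, 28 of 32 collagen and cartilage genes and 22 of 25 bone, scale and tooth genes lay below 0 (medians −0.90, −1.12 and −1.28), and 12, 8 and 4 were separated downward (32.4%, 25.0% and 16.0%, against 16.6% of all genes). With library size alone 4, 3 and 0 were separated (8.42% of all genes then), without T60D-1 27, 26 and 14 were (33.1%), and without C60D-2 20, 20 and 22 were (26.2%). Red cell genes gave 14 of 16 tested members below 0 (median −1.25) and 3 separated downward (18.8%, against 16.6% of all genes). Without C60D-1 11 of 16 were separated downward (68.8%, against 19.3%), and without T60D-1 6 of 17 were (35.3%, against 33.1%). The adult beta globin hbba1 had 1531, 1220.3 and 842 CPM in T60D, against 1016, 5295 and 2568 CPM in C60D. The globin values overlapped, with C60D-2 far above the rest.

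The 44 genes near absent in T60D formed no organ group, and none stood in a marker list. Of these, 20 exceeded 3 counts in all C60D libraries, 15 in C60D-2 and C60D-3 only and 9 in C60D-1 and C60D-3 only, and 6 had no count in T60D. The highest C60D levels were a few CPM. LOC103910221 had 0 CPM in all T60D libraries, against 2.33, 2.33 and 3.30 CPM in C60D, at least 13.1-fold lower in T60D at a floor of 3 counts per library. The fish-specific TRIM family gene ftr70 had 0.0726, 0.0627 and 0.200 CPM in T60D, against 1.4, 2.43 and 2.34 CPM in C60D. The antiviral RNA sensor rigi had 0.145, 0.0627 and 0 CPM in T60D, against 1.87, 0.777 and 0.967 CPM in C60D, and the interferon-induced ifi44e had 0.218, 0.125 and 0.134 CPM in T60D, against 1.2, 0.680 and 1.29 CPM in C60D. All of these stayed low in both groups. Leaving out T60D-1 raised the count of such genes to 501 and leaving out T60D-2 to 106. The 501 took in 7 spermatid, 3 meiosis, 1 testis somatic and 1 lymphocyte list member. The absence of listed genes among the 44 thus depended on T60D-1, which carried testis transcripts.

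Among the 600 genes near absent in C60D that stood in no list, the same library patterns recurred. The RNA-binding protein gene larp6b had 0.0726, 222 and 201 CPM in T60D and no count in C60D, at least 577-fold higher as a mean, and 42sp43, a storage protein of early oocytes known in *Xenopus*, had 0.145, 293 and 297 CPM in T60D, against 0.0666, 0 and 0 CPM in C60D. Both followed the oocyte genes. The asialoglycoprotein receptor asgr1a, a liver receptor, had 60.6, 0.0627 and 65.4 CPM in T60D, against 0, 0.194 and 0 CPM in C60D, and the plasma protease gene habp2 had 63.2, 0.0627 and 37.6 CPM in T60D with no count in C60D. Both followed the secreted liver proteins.

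Across the other 15 libraries, liver and eye transcripts were usually present. The liver list stood at 4.91 or more in 14 of the other 15 libraries (median 6.96), and the exception, T45D-3, stood at 0.34, next to the 0.09 to 0.69 of C60D and the 0.35 of T60D-2. The lens list was near the floor in 3 other libraries, C35D-1 (−0.70), T45D-1 (−0.63) and T45D-3 (−0.65), and had a median of 4.13. The oocyte list was above 8 only in T35D-2, T35D-3, T45D-2, T60D-2 and T60D-3 and at 5.77 or less in all other libraries. The lens list was thus near the floor in single heated and unheated libraries at other ages, and the liver list in T45D-3. At 60 dpf these lists were near the floor in T60D-2 and all of C60D. Other lists differed: the exocrine pancreas list stood at 3.93 and 2.73 in C60D-2 and C60D-3. The oocyte list was near the floor in T60D-1 and all of C60D.

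**Figure D5:**
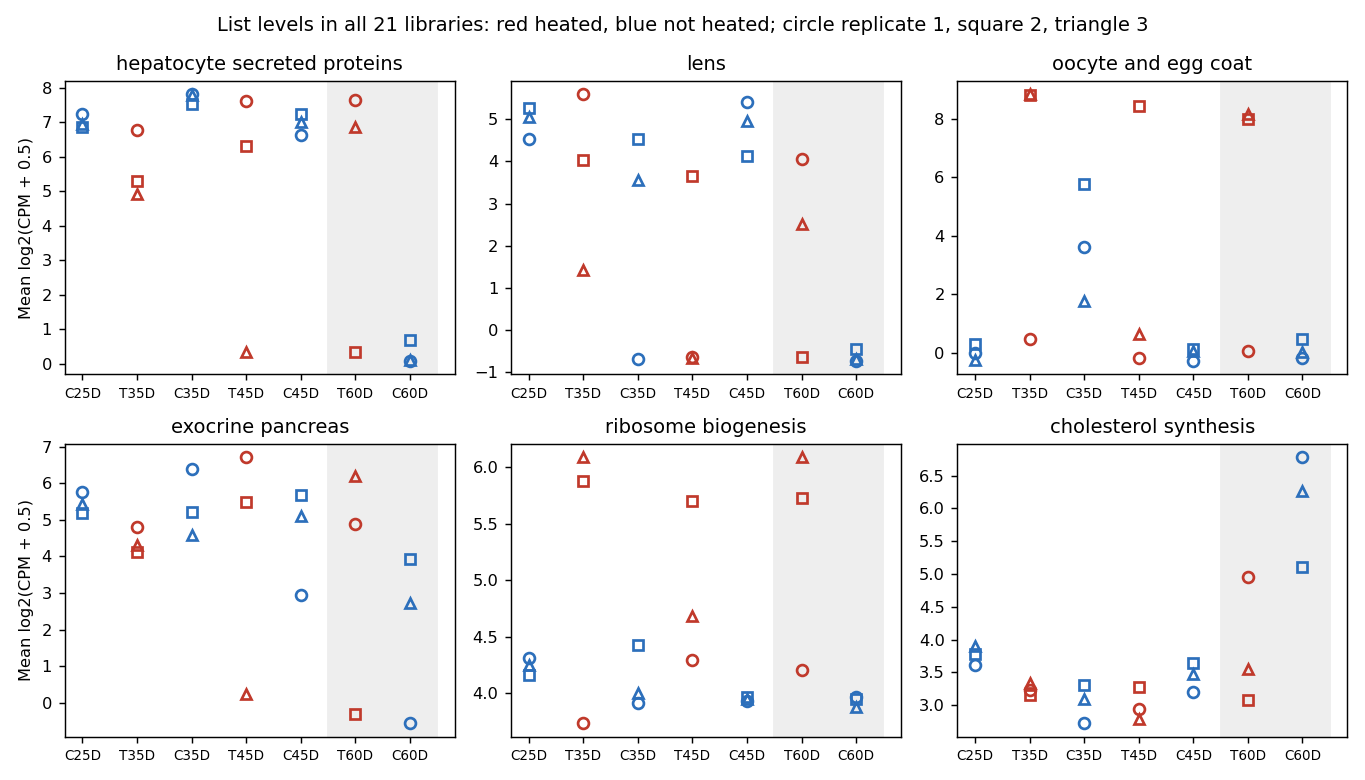
Mean log2(CPM + 0.5) of 6 gene lists in all 21 libraries, by group along the horizontal axis with heated groups in red and unheated groups in blue and 60 dpf shaded. At 60 dpf the liver list is near the floor in all C60D libraries (0.09 to 0.69) and in T60D-2 (0.35), and cholesterol synthesis is higher in C60D (5.10 to 6.78) than in the 15 libraries of other ages (2.72 to 3.90).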

How the data were processed

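Poly(A) RNA libraries of whole fish were sequenced on the BGISEQ-500. According to the methods of the study, the authors filtered the reads with SOAPnuke, mapped them with HISAT2 2.0.4 and with Bowtie2 2.2.5 to RefSeq coding genes of GRCz11, and estimated levels with RSEM 1.2.12. The deposited table holds, per the file headers, expected counts per gene (RSEM estimates, which need not be whole and divide reads among close paralogs) and FPKM values, which the authors scaled for length and depth and which were not tested here. The strand setting of the counting is not given in the sources used here.

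Expected counts were rounded (89.4% were already whole). Genes passing filterByExpr were fitted with edgeR 4.0.16 on the 6 libraries of 60 dpf (TMM, quasi-likelihood, Benjamini-Hochberg threshold 0.05), in R 4.3.3, with DESeq2 1.42.0 as an alternative. The edgeR fit was checked on simulated counts of independent libraries. That check does not cover the mixture seen in C60D-3 or the organ differences between libraries. Gene CPM and sums used TMM factors over the 6 libraries, and list levels, the mean of log2(CPM + 0.5), and values at other ages used factors over 21 libraries. Near absence meant at most 3 counts in each library of a group and a median of at least 10 in the other. A fold against a group without counts is a bound, with 3 counts per library averaged over the group as the floor. The ± values are standard errors from the edgeR fit, so they carry the spread between these libraries, with C60D-3 counted as independent. Floors cover counting error only.

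The members and the 41 gene lists were chosen with earlier results of these data known. Named genes were, in each direction, the 10 with the smallest p and the 10 with the largest fold change among separated genes, the 3 most abundant tested members of each list, the 4 most abundant near-absent members of each organ list, and the vitellogenins and a set of sex genes. A selection of these is printed. Genes named beyond the rule (hsp70.1, hspa5, hspd1, dkc1, rrs1, npm1a, srebf2, angptl4, cpt1ab, nr3c1, ddx4, cyp11c1, fabp6, cyp17a1, rigi, ifi44e and those described as standing in no list) were chosen after their values were seen. Alternatives were other scalings, filters and tools, a replicate block, a fit of all 21 libraries and leaving out each library. List counts under other scalings and without each library were added after seeing the data.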

Additional observations from a re-analysis of the deposited data

How the results depend on the processing

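The count of genes past the adjusted edgeR threshold, 0 higher and 0 lower, depended on the tool and on the T60D libraries. DESeq2 gave 2527 and 649, library size alone gave 9 higher, a fit of all 21 libraries gave 1954 and 1209, and leaving out 1 library gave 0 to 3920 higher and 0 to 2373 lower genes, the highest without T60D-1. Unadjusted counts of higher genes (3002) were 4638 with DESeq2, 4764 without the filter on counts, 5433 in the fit of 21 libraries and 1642 to 4953 without 1 library. Unadjusted counts of lower genes (1777) were 955 with library size alone, 3371 in the fit of 21 libraries and 581 to 4405 without 1 library. Genes whose groups did not overlap numbered 2695 to 6161 higher and 3070 to 6479 lower without 1 library, and 1571 lower with library size alone. Near-absent genes numbered 154 in C60D and 6 in T60D when no count at all was allowed, and 677 to 990 and 51 to 501 without 1 library. The causes were not tested.

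Adding a replicate block to the fit left 0 genes past the threshold in either direction (lowest adjusted p 0.167 in edgeR, Benjamini-Hochberg) and 1694 were higher and 1380 lower before adjustment. Deviations of libraries with the same number correlated at −0.16, −0.28 and −0.11, so they gave no positive sign of pairing. With so few libraries in each group, which also differed strongly in the organs they represented, these values cannot decide whether same-numbered libraries formed pairs.

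Higher genes made up 62.8% of the unadjusted calls, 79.0% with library size alone, 74.5% without the filter and 55.1% with the block. Of 40 list medians 14 changed sign in at least 1 alternative, and none of the fold changes of 93 named genes did. Part of the naming rule took genes because their groups were separated, and leaving out a library can hardly turn such genes. Other parts took genes by abundance or as sex genes. The 93 are a selection and do not include every gene taken by the rule. Their constant sign is therefore no measure of stability for other genes. Only 60 of the 93 entered the fit that required at least 10 counts in all 6 libraries. Organ lists near the floor of 3 counts limit what a fold change can show there.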

Other observations

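Lists not described above, or only in part, gave mixed values. In the list of ovary somatic and estrogen genes, 5 of 11 tested members were separated downward and 0 upward (45.5% downward, against 16.6% of all genes; median log2 fold change −0.85), although 4 members were near absent in C60D. With library size alone 3 were separated downward (27.3%, against 8.42% of all genes then). Without T60D-1 8 of 16 were (50%, against 33.1%). The upward count in that setting is not given, since members near absent in C60D can pass the filter through T60D-2 and T60D-3 alone. Follistatin (fsta), an activin inhibitor expressed in many tissues, had 6.68, 9.21 and 1.47 CPM in T60D, against 19.2, 39.6 and 29.2 CPM in C60D. Of the tested germ cell genes 16 of 17 lay above 0 (median 2.35), and of the meiosis genes 8 of 27 did (median −0.87). Upward, 0 and 1 of them were separated (0% and 3.7%, against 12.7% of all genes). Without C60D-2 the meiosis median turned to 0.08 (15 above and 12 below 0) with 6 separated upward, and 15 of 20 germ cell genes were separated upward, against 19.3% of all genes. Without T60D-1 the upward counts were 15 germ cell genes (75%) and 6 meiosis genes (22.2%), against 31.4% of all genes. Downward, 7 meiosis genes were separated (25.9%, against 33.1% of all genes). In both settings 20 germ cell genes were tested instead of 17. The added ones can have passed the filter through T60D alone, so the upward germ cell counts are no independent result. The testis somatic list had 5 of 14 members above 0, the lymphocyte list 2 of 15, the myeloid list 12 of 30, the kidney list 13 of 25, the ionocyte list 7 of 12, the DNA methylation list 9 of 19, the fatty acid synthesis list 9 of 19, the list of retinal pigment epithelium and inner retina 7 of 13, the heart list 4 of 8, the list of swim bladder and thyroid 3 of 5 and the embryonic globin list 0 of 3. No pituitary gene passed the filter.

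A 45 dpf control library showed the same mixture as C60D-3: C45D-3 could be written as 49.8% and 50.2% of the other C45D libraries, with a chi-square of 1.54 per degree of freedom.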
